A study of Sus scrofa with 12 samples.

Results

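The fibroblast growth factor (FGF) system is described here by 7 genes in pig induced pluripotent stem cells, the ligands FGF2, FGF4 and FGF19 and the receptors FGFR1, FGFR2, FGFR3 and FGFR4. They were taken by gene symbol from tables of 24358 genes, and each of the 7 symbols belonged to 1 gene. All 12 libraries came from PC-iPS cells, which were reprogrammed from pig pericytes and kept in LCDMV, a medium with LIF, the GSK3 inhibitor CHIR99021, dimethindene maleate, minocycline hydrochloride and vitamin C, and with no FGF among these additions. The WT group was the parental PC-iPS culture, and the KI group was the NANOG tdTomato knock-in positive lines nanog1 to nanog3, in which a FLAG tag, tdTomato and a puromycin cassette had been inserted at NANOG. The paper states that the cultures came from mixed transformed populations, in which cells may differ in their insertions, and that tdTomato-positive cells were sorted. The ActA and SB groups were knock-in positive cells treated with Activin A or with SB431542, an inhibitor of the receptors for TGF-β and Activin. The study used LCDMV without LIF for its cytokine and inhibitor tests and removed feeder cells before RNA extraction. Each group had 3 libraries, numbered 1 to 3. The KI libraries carry the names of the 3 lines, with 1 library per line. Their spread includes that between lines, which cannot be told apart from that between cultures or library preparations. For WT, ActA and SB the labels do not say that the libraries were separate cultures, nor which line a treated library came from. The p-values there measure a spread that may be technical in whole or in part. In deviations from the group means, treated libraries correlated with the KI library of the same number (r = 0.506 to 0.664 for ActA, 0.516 to 0.631 for SB). Between different numbers r was -0.498 to -0.064 for ActA and -0.475 to -0.177 for SB. Deviations cancel out within a group, so positive values for the same number push those between different numbers to be negative. Whether the number stands for the line was not tested.

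FGFs are secreted proteins that bind receptor tyrosine kinases on the cell surface, with heparan sulphate chains as cofactors. Bound receptors signal through adaptors such as FRS2 to the RAS and ERK cascade, and ERK in turn switches on its own inhibitors, among them the Sprouty proteins and the dual-specificity phosphatases. FGF2 sustains primed human pluripotent cells in culture, and FGF4 is the ligand that pluripotent cells of the early mouse embryo secrete. FGF19 is a hormone-like FGF that in the gut and liver acts through FGFR4 with the coreceptor KLB. Each receptor gene except FGFR4 gives splice forms that differ in the ligands they bind, and the gene-level values used here do not tell these forms apart.

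Levels are given as FPKM, which divides the fragments of a gene by its transcript length and by the mapped total of the library and can be compared between genes per unit of length. WT and KI were in 1 table and ActA and SB in another, and the tables were made separately, so tests were run only within a table and levels across tables are set side by side without a test. FPKM summed to between 364241 and 390320 per library. The number of reads is unknown, and the relative depth estimated from the steps of the lowest values was 0.566 to 0.633 in WT against 0.732 to 1.00 in KI, 0.862 to 0.983 in ActA and 0.838 to 0.949 in SB. Low genes were therefore read less finely in WT. NANOG, the targeted gene, was at 9.71 to 27.6 FPKM in WT, 52.0 to 101 in KI, 109 to 195 in ActA and 11.8 to 27.2 in SB. Of 12 pluripotency markers, 10 were found and 6 had a mean of at least 1 FPKM. POU5F1 and DPPA4 were not matched by symbol, and ZFP42 and TFCP2L1 stayed under 0.1 FPKM. EPCAM was at 0.264 to 0.516 FPKM and TDGF1 at 0.599 or lower. In these values the label of pluripotent cells thus rests on NANOG, SOX2, LIN28A, SALL4, CDH1 and DNMT3B. For the knock-in positive cells the paper also reports OCT4 and SOX2 staining, alkaline phosphatase staining and differentiation into germ layers.

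FGF19 was the most abundant of the 3 ligands in 12 of 12 libraries and the only gene of the set whose KI and WT libraries did not overlap. FGF19 (ENSSSCG00000012871) lies on chromosome 2 from 3583027 to 3586985 in the RefSeq annotation of Sscrofa11.1. It stood at 11.9, 7.46 and 13.6 FPKM in WT libraries 1, 2 and 3 and at 94.7, 113 and 60.1 in KI. Activin A libraries held 74.7, 81.6 and 38.7 FPKM and SB431542 libraries 119, 157 and 64.7. The lowest of the 9 knock-in derived libraries thus lay above the highest WT library. Between KI and WT alone, 35.7% of all genes tested did not overlap. The share for all 9 libraries, which spans the separately made tables, was not computed. The group means were 11.0 ± 3.18 in WT, 89.4 ± 27.1 in KI, 65.0 ± 23.1 in ActA and 114 ± 46.5 in SB (SD, n = 3 each). FGF19 made up 55.1% to 75.7% of the summed FPKM of the 3 ligands in WT and 90.6% to 94.6% in the knock-in derived libraries, and in 4 of 12 libraries it exceeded each receptor gene.

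**Figure D1:**
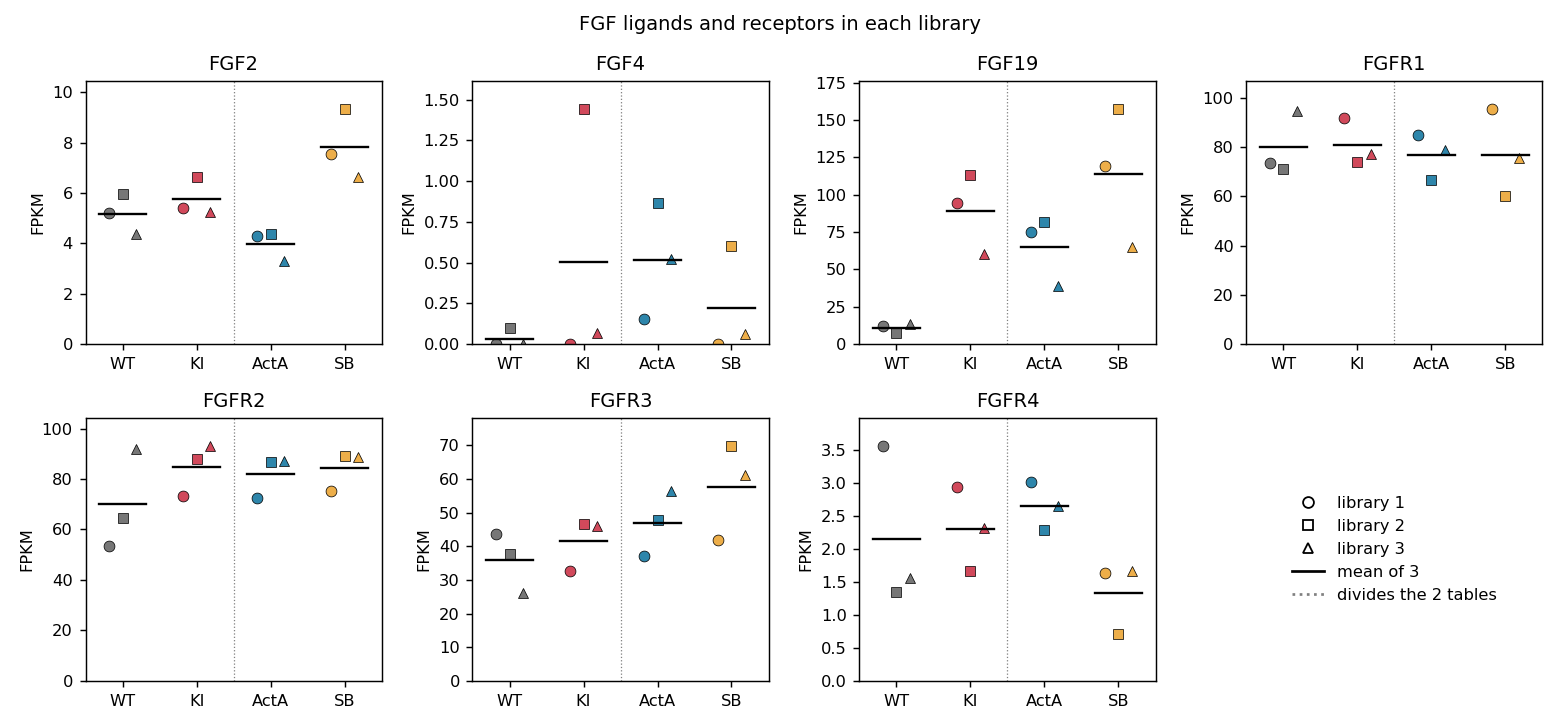
FPKM of the 7 genes (vertical axes, each from 0) in the WT, KI, ActA and SB groups, with 1 symbol per library and a bar at the mean of 3; the dotted line divides the separately made tables. FGF19 lies at 7.46 to 13.6 in WT and at 38.7 to 157 in the other groups, FGF2 and FGFR4 differ between ActA and SB without overlap, and the 3 abundant receptors overlap between groups.

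FGF2 (ENSSSCG00000036213), on chromosome 8 from 101278877 to 101344084, was the other ligand present in every library. It measured 5.19, 5.97 and 4.37 FPKM in WT and 5.42, 6.63 and 5.25 in KI. It measured 4.29, 4.36 and 3.31 in ActA and 7.56, 9.33 and 6.63 in SB. WT and KI overlapped, whereas the highest Activin A library was below the lowest SB431542 library. In the order of means, SB (7.84 ± 1.37) came before KI (5.77 ± 0.751), WT (5.17 ± 0.798) and ActA (3.99 ± 0.586), and KI and WT were the neighbours that overlapped. The lowest SB and the highest KI library were both at 6.63.

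FGF4 (ENSSSCG00000012870), on chromosome 2 from 3527113 to 3529011, was near the limit of detection. It was listed at 0 in WT libraries 1 and 3 and at 0.102 FPKM in WT library 2. The KI values were 0, 1.44 and 0.0688, the ActA values 0.156, 0.868 and 0.522, and the SB values 0, 0.603 and 0.0613. Every pair of neighbouring groups in the order of means overlapped, and in each of the 4 groups library 2 had the highest value.

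FGFR1 and FGFR2 had the highest mean levels of the receptors in every group, followed by FGFR3, with FGFR4 at a small share. SB library 2 was an exception to this order, with FGFR3 (69.8 FPKM) above FGFR1 (60.1). FGFR1 (ENSSSCG00000015815; chromosome 15, 48053895 to 48106634) was at 73.4, 71.2 and 94.8 FPKM in WT, 91.7, 74.0 and 77.2 in KI, 84.9, 66.7 and 79.0 in ActA and 95.3, 60.1 and 75.4 in SB. FGFR2 (ENSSSCG00000010698; chromosome 14, 131183095 to 131285001) was at 53.5, 64.7 and 91.7 in WT, 73.4, 87.9 and 93.1 in KI, 72.6, 86.6 and 87.2 in ActA and 75.4, 88.9 and 88.7 in SB. For both genes all neighbouring groups overlapped, and the mean of FGFR1 differed little between groups, from 76.8 ± 9.28 in ActA to 81.0 ± 9.40 in KI. FGFR3 (ENSSSCG00000030827; chromosome 8, 879151 to 894968) was at 43.6, 37.8 and 26.1 in WT, 32.5, 46.5 and 46.1 in KI, 37.1, 47.7 and 56.4 in ActA and 41.9, 69.8 and 61.0 in SB. Its mean was lowest in WT (35.8 ± 8.92) and highest in SB (57.6 ± 14.3), again with overlap between neighbours. FGFR4 (ENSSSCG00000014047; chromosome 2, 80841536 to 80853791), the receptor that FGF19 uses in liver, was at 3.56, 1.34 and 1.56 in WT, 2.94, 1.66 and 2.32 in KI, 3.01, 2.29 and 2.65 in ActA and 1.63, 0.718 and 1.67 in SB. It was the lowest of the 4 receptors in 12 of 12 libraries, and within its own table the SB values lay wholly below those of ActA.

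As a share of the summed FPKM of the 4 receptors, FGFR1 took 42.4% ± 1.79 in WT, 38.7% ± 6.03 in KI, 36.9% ± 5.33 in ActA and 35.0% ± 8.70 in SB (SD, n = 3). FGFR2 took 36.8% ± 6.05, 40.3% ± 3.24, 39.4% ± 2.98 and 38.3% ± 2.75 in the same order. FGFR3 took 19.6% ± 6.66, 19.8% ± 3.16, 22.4% ± 3.26 and 26.1% ± 6.16, and FGFR4 1.18% ± 0.750, 1.11% ± 0.340, 1.27% ± 0.216 and 0.607% ± 0.243. FGFR1 was the highest receptor in 3 of 3 WT libraries and in library 1 of KI, ActA and SB, while FGFR2 was the highest in libraries 2 and 3 of those groups (6 of 12 libraries each). The summed FPKM of the receptors was 188 ± 22.9 in WT, 210 ± 9.10 in KI, 209 ± 14.5 in ActA and 220 ± 6.26 in SB.

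**Figure D2:**
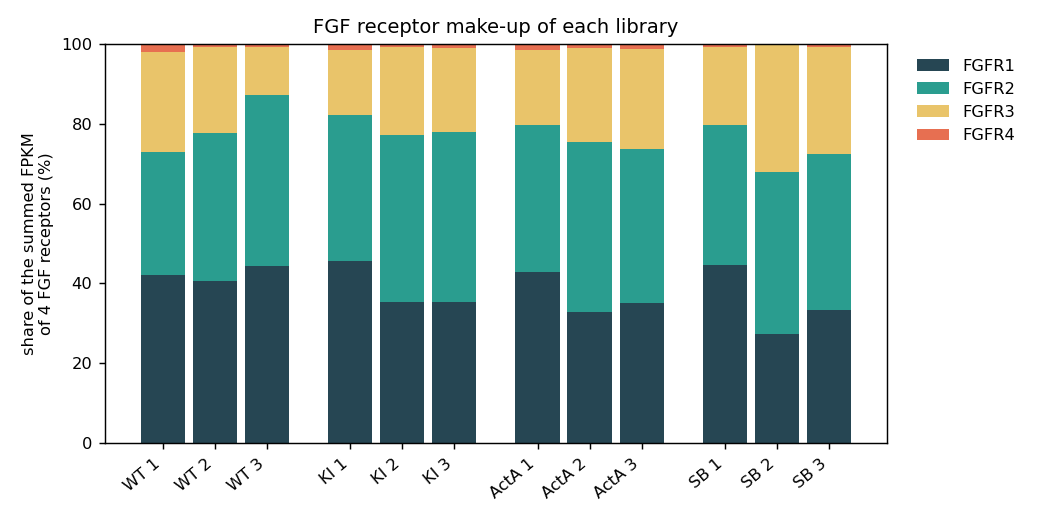
Share of each receptor in the summed FPKM of FGFR1 to FGFR4 (vertical axis, percent), 1 bar per library. FGFR1 ranges from 27.4% to 45.7%, FGFR2 from 30.7% to 42.8%, FGFR3 from 12.2% to 31.8% and FGFR4 from 0.327% to 2.05% over the 12 libraries.

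To ask which of these genes differed between knock-in positive and WT cells, limma was run on log2(FPKM + 1), a scale that understates the change of low genes, for the 14014 genes that reached 0.1 FPKM in 3 libraries of the table. A gene passed when its p, adjusted by Benjamini-Hochberg over all genes tested, was 0.05 or lower. FGF19 rose in KI by 2.90 on the log2 scale (SE 0.277, 95% interval 2.26 to 3.55, adjusted p = 0.00406), and the ratio of mean FPKM was 8.14. It was the only member to pass, 1 of 6 tested, where 7.22% of all genes passed, 4.88% as higher in KI and 2.34% as lower. It was also the only member to pass with a log2 fold change of at least 1, as 2.31% of all genes did, and the only member whose groups did not overlap, as 35.7% of all genes did. The exact two-sided permutation test of 3 against 3 gave p = 0.1, the smallest it can give. Leaving out each library in turn kept the difference between 2.67 and 3.16 (adjusted p 0.00574 to 0.0202).

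FGF2 differed by 0.13 (95% interval -0.24 to 0.51, adjusted p = 0.615) and did not pass, nor did any receptor. The log2 differences were 0.03 for FGFR1 (-0.30 to 0.35, adjusted p = 0.919), 0.30 for FGFR2 (-0.16 to 0.76, adjusted p = 0.342), 0.23 for FGFR3 (-0.28 to 0.73, adjusted p = 0.520) and 0.12 for FGFR4 (-0.53 to 0.76, adjusted p = 0.815). Single libraries moved several of these values. FGFR2 was 0.13 without WT library 1 and 0.51 without WT library 3 (adjusted p = 0.0709), FGFR3 ran from 0.02 without WT library 3, 0.14 without KI library 2 and 0.15 without KI library 3 to 0.38 without WT library 1 and 0.39 without KI library 1, and FGF2 was 0.04 without WT library 3, 0.05 without KI library 2 and 0.23 without WT library 2. The intervals still allow changes of up to 0.76 on the log2 scale. The sign of the FGFR1 and FGFR4 differences turned when some libraries were left out, and that of FGFR1 also under quantile normalization (-0.09). FGF4 was below the filter, was not tested and gave an exact permutation p of 0.7. The median log2 difference of the 6 tested members was 0.18, beside a median of -0.0014 over all genes tested.

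**Figure D3:**
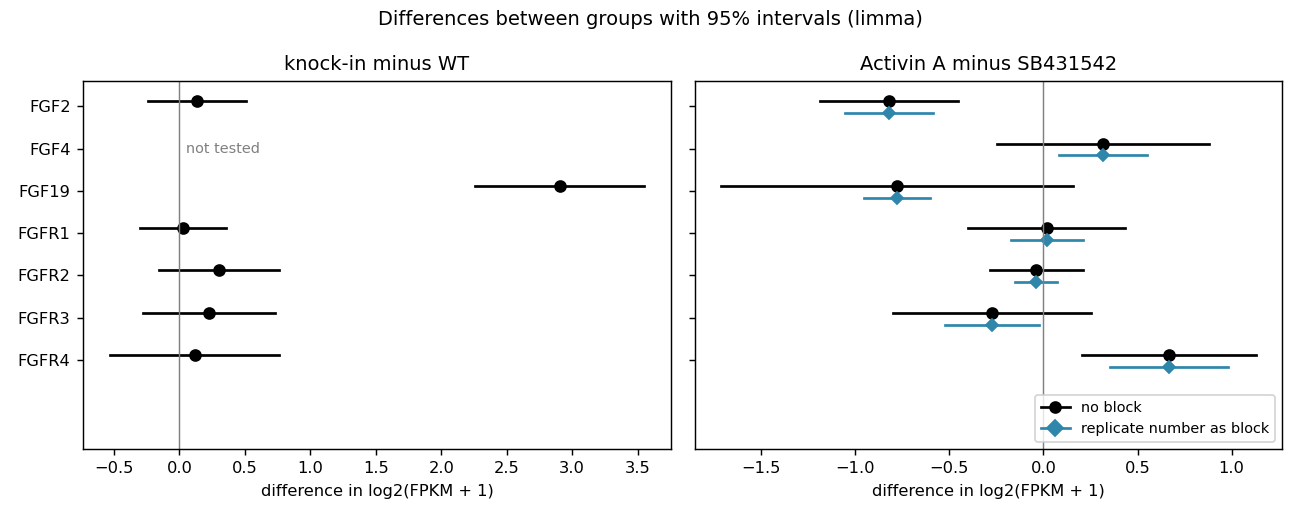
Difference in log2(FPKM + 1) with its 95% interval (horizontal axes) for each gene, KI minus WT on the left and ActA minus SB on the right; blue diamonds come from the fit with the replicate number as a block. FGF19 at 2.90 stands apart on the left, and on the right FGF2 (-0.82) and FGF19 (-0.78) lie below 0 and FGFR4 (0.67) above it.

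Other measured signals also differed between KI and WT. Trophectoderm markers (10 of 10 found, 5 with a mean of at least 1 FPKM) summed to 12.9 to 19.5 FPKM in WT and 77.5 to 513 in KI, mostly through KRT8 and KRT18, while CDX2, ELF5, HAND1 and KRT7 stayed under 0.1 FPKM. Pericyte markers (10 of 10 found) summed to 30.0 to 33.2 in WT and 54.3 to 57.7 in KI. Of these, ACTA2 was at 1.17 to 1.73 in WT and 11.4 to 17.5 in KI and PDGFRB at 1.75 to 3.23 and 8.19 to 11.4, while MCAM overlapped and DES was lower in KI. Fibroblast markers (10 of 10 found, COL6A3 under 0.1 FPKM) summed to 33.6 to 45.0 in WT and 63.3 to 92.4 in KI, with COL1A1 lower in KI. The neural ectoderm sums overlapped, but PAX6 was at 8.96 to 26.8 in WT and 0.858 to 4.12 in KI, and NES at 65.8 to 86.3 and 125 to 148. Mesendoderm markers (8 of 8 found, 1 with a mean of at least 1 FPKM) summed to 6.38 to 9.15 in WT and 12.8 to 18.98 in KI, nearly all from GATA6, and pluripotency markers, NANOG included, to 137 to 155 and 283 to 508. Of the pluripotency list, LIN28A was at 32.8 to 47.6 in WT and 108 to 285 in KI, while SALL4, EPCAM and DNMT3B overlapped. The part of these markers in the FGF19 difference was not tested. In bulk RNA a change in the number of cells of a type and a change per cell cannot be told apart.

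Among other genes of the FGF pathway, 88 of 94 listed genes were in the table, 77 were tested and 11 passed, 9 higher and 2 lower in KI. That is 14.3% of those tested, beside 7.22% of all genes, and the 2 lower genes are near the 2.34% of all genes that were lower. Their median log2 difference was 0.06. The count was 5 without KI library 1, 5 without KI library 2, 6 without WT library 1 and 5 without WT library 2. Inhibitors and targets that ERK switches on held 6 of these genes, all higher in KI, out of 21 tested. Of the 21, 16 were higher and 5 lower in KI, and 0 of the lower genes passed. Among the Sprouty genes, SPRY1 (-0.16) and SPRY3 (-0.31) were lower and SPRY2 (1.06) was higher, and none of them passed. SPRY4, a Sprouty inhibitor of receptor signalling, was at 33.1, 38.4 and 37.3 FPKM in KI and 4.14, 3.06 and 3.09 in WT, a rise of 3.08 on the log2 scale (SE 0.141, adjusted p = 0.000314). DUSP5, a phosphatase of nuclear ERK, rose by 2.76 (SE 0.284, adjusted p = 0.00485), from 0.131 to 1.07 FPKM in WT to 6.83 to 11.7 in KI. With 0.1 or 0.01 added to FPKM in place of 1, DUSP5 rose by 4.33 and 4.77 and SPRY4 by 3.38 and 3.41. PHLDA1, an ERK-induced gene, rose by 2.00 (adjusted p = 0.0116) and DUSP4, another phosphatase, by 1.17 (adjusted p = 0.0214). CCND1 (cyclin D1) and the transcription factor ETV5 were the other members that passed, and the remaining 15 did not, among them DUSP6, a cytosolic ERK phosphatase, at 2.00 (adjusted p = 0.0532). SPRY4, DUSP5, PHLDA1 and CCND1 passed in all 15 alternatives run. DUSP4 passed in 12, failing without KI library 1, WT library 1 and WT library 2, and ETV5 passed in 8.

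In the cascade itself 2 of 25 tested adaptors and kinases passed and among coreceptors and binding partners 2 of 23, shares near the 7.22% of all genes. In the cascade these were the RAF kinase ARAF with a rise of 0.56 and the ribosomal S6 kinase RPS6KA1 with a rise of 0.58. Of the coreceptors and binding partners, the heparan sulphate proteoglycan SDC2 rose by 0.64 (adjusted p = 0.0343) and FLRT3, a membrane protein that binds FGF receptors, fell by 1.83 (adjusted p = 0.0296), from 17.2 to 31.0 FPKM in WT to 3.58 to 10.4 in KI. KLB, the coreceptor of FGF19, was between 0.0752 and 0.314 FPKM in these 6 libraries and did not pass (0.05, adjusted p = 0.772), and KL, its relative for FGF23, was not matched by symbol. FGFRL1, a receptor without a kinase domain, was at 0.386, 0.0902 and 0.331 FPKM in KI and 1.20, 0.843 and 0.500 in WT, a difference of -0.53 that did not pass (adjusted p = 0.0908). Of the 5 other secreted ligands tested 0 passed, and FGF22 alone reached 1 FPKM, at 1.25 to 2.17. FGF14, one of the intracellular FGF homologous factors that do not act through FGF receptors, fell by 1.48 (adjusted p = 0.0452), from 19.3 ± 7.34 FPKM in WT to 6.18 ± 2.53 in KI (SD, n = 3). These calls did not hold in every one of the 15 alternatives, with ARAF passing in 6, RPS6KA1 in 7, SDC2 in 8, FLRT3 in 9 and FGF14 in 9. None of these 5 genes passed without a filter, without KI library 1, without KI library 2 or without WT library 1.

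**Figure D4:**
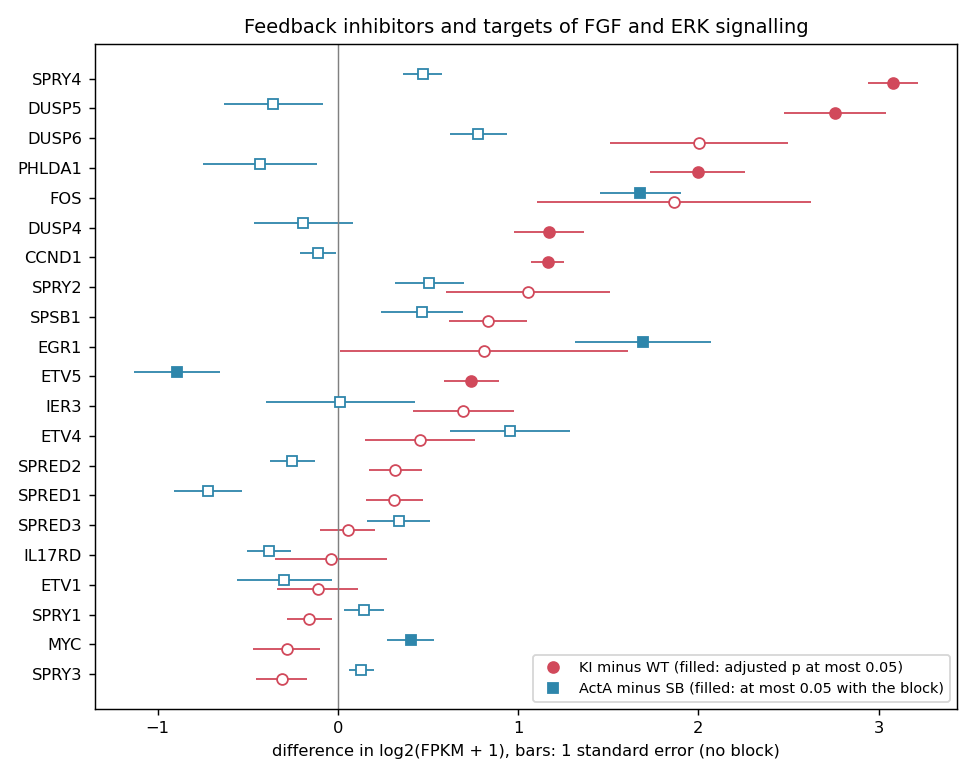
Difference in log2(FPKM + 1) (horizontal axis) of the 21 feedback inhibitors and targets, with bars of 1 standard error, KI minus WT as circles and ActA minus SB as squares; filled symbols passed, for ActA minus SB in the fit with the block. SPRY4 (3.08) and DUSP5 (2.76) head the circles, and FOS (1.68) and EGR1 (1.69) the squares.

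FGF4 and FGF19 are neighbours, with 54.0 kb between them on chromosome 2 of Sscrofa11.1. FGF3 precedes FGF4 by 30.6 kb, and LTO1 (ORAOV1 in the annotation) and CCND1 follow FGF19, with CCND1 beginning 34.3 kb beyond it. Of 7 tested genes around the ligands, from CTTN to TPCN2, CCND1 alone passed (14.3%, beside 7.22% of all genes), with 106, 112 and 101 FPKM in KI and 44.5, 46.5 and 49.7 in WT, a rise of 1.16 (SE 0.0918, adjusted p = 0.00198). LTO1, between FGF19 and CCND1, was at 18.7 to 22.0 FPKM in KI and 16.3 to 17.5 in WT and did not pass (0.26, adjusted p = 0.162). FGF3 was listed at 0 in each of these 6 libraries.

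The treated knock-in cells were compared to ask what separates Activin A from its receptor inhibitor, with 13999 genes tested in the same way. None of the 7 members passed, in a comparison where 0.136% of all genes did, 19 genes in all, and 1797 had an unadjusted p under 0.05. FGF2 was lower with Activin A by 0.82 (SE 0.154, 95% interval -1.19 to -0.45, adjusted p = 0.138), and FGFR4 was higher by 0.67 (95% interval 0.20 to 1.13, adjusted p = 0.253). Their groups did not overlap, which held for 2 of 7 members and for 20.0% of all genes, and each had an exact two-sided permutation p of 0.1, the smallest possible. FGF19 lay 0.78 lower with Activin A (SE 0.391, adjusted p = 0.459) with overlapping groups and an exact permutation p of 0.3. In this fit, where leaving out a library breaks a pair of the same number, its value was -0.45 without ActA library 3, -0.50 without SB library 2 and -1.13 without SB library 3. The members' median was -0.04, beside -0.0040 over all genes tested.

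Libraries of the same number went together in this table, and the block on the number changed the call for both ligands. With the block FGF2 fell by 0.82 (SE 0.0904, 95% interval -1.05 to -0.59, adjusted p = 0.0294) and FGF19 fell by 0.78 (SE 0.0676, 95% interval -0.95 to -0.60, adjusted p = 0.0210), that is, both were lower with Activin A than with SB431542. Those are 2 of 7 members, where 2.88% of all genes passed with the block, 1.21% as lower and 1.66% as higher. SB431542 libraries 1, 2 and 3 held 1.60, 1.93 and 1.67 times the FGF19 of the Activin A library of the same number and 1.76, 2.14 and 2.00 times its FGF2. FGFR4 was the reverse, with 1.85, 3.19 and 1.59 times as much in Activin A, and did not pass with the block (adjusted p = 0.0639). The exact paired permutation test of 3 pairs gave p = 0.25 for FGF2, FGF19 and FGFR4, the smallest it allows. With the block, FGF2 stayed at -0.88, -0.76 and -0.82 and FGF19 at -0.83, -0.70 and -0.80 without pair 1, 2 and 3. The calls of FGF2 and FGF19 were lost when pair 1 (adjusted p = 0.141 and 0.113) or pair 2 (0.115 and 0.0600) was left out, and without pair 3 FGF19 alone passed (adjusted p = 0.0440, against 0.0735 for FGF2). They were also lost, at the same sizes, with the block and no filter on low genes (0.0782 and 0.0706).

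FGF4 was higher with Activin A in 3 of 3 pairs, by 0.32 on the log2 scale (95% interval -0.25 to 0.88, adjusted p = 0.614), at values under 1 FPKM. That size depended on the pseudocount, with 1.26 at 0.1 and 2.49 at 0.01, and on single libraries (0.15 without ActA library 2, 0.19 without SB library 1, 0.50 without ActA library 1 and 0.53 without SB library 2). FGFR3 was lower in 3 of 3 pairs, by 0.28 (95% interval of the difference -0.80 to 0.25, adjusted p = 0.641). It was -0.12 without ActA library 1 and without SB library 2, -0.41 without ActA library 3 and -0.48 without SB library 1. FGFR1 differed by 0.02 (-0.40 to 0.43), with a sign that turned when some libraries or pairs were left out. FGFR2 was lower with Activin A in 3 of 3 pairs, by 0.05, 0.04 and 0.02, a mean of -0.04 (-0.29 to 0.21), and turned only when single libraries of a pair were left out. Fibroblast markers summed to 82.6 to 119 FPKM in ActA and 47.3 to 52.1 in SB, pericyte markers to 46.3 to 53.7 and 62.9 to 65.2, trophectoderm markers to 85.4 to 472 and 121 to 946, and mesendoderm markers to 18.4 to 22.9 and 7.59 to 15.2. The pericyte sum was higher in SB through ACTA2 (18.7 to 20.6 against 7.52 to 9.28), whereas NOTCH3 of the same list was at 16.1 to 21.3 in ActA and 11.2 to 14.9 in SB. The pluripotency sums overlapped, with LIN28A at 90.0, 200 and 67.5 in ActA and 327, 498 and 192 in SB, higher in SB in 3 of 3 pairs, opposite to NANOG. The trophectoderm sum was higher in SB through KRT8, whereas GATA2 of the same list was at 21.7 to 38.9 in ActA and 2.15 to 10.8 in SB, and TFAP2C was higher in ActA in 3 of 3 pairs. Neural ectoderm sums overlapped, at 266 to 346 in ActA and 235 to 299 in SB. Of that list, ZIC1 was at 81.3 to 111 in ActA and 50.3 to 79.7 in SB. SOX1 was higher in ActA, and PAX6 higher in SB, in 3 of 3 pairs. The part of these markers in the FGF differences was not tested. Whether both treated groups were grown with or without feeder cells is not given for these libraries in the sources used here.

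In the wider pathway, 0 of 76 tested genes passed with limma without the block, beside 0.136% of all genes, and 5 of 76 did with it, beside 2.88%. With the block and no filter on low genes none of these 5 passed (0 of 85 tested). The immediate early genes EGR1 and FOS, transcription factors that ERK induces, were higher with Activin A by 1.69 (adjusted p = 0.0266 with the block) and 1.68 (0.0107), and MYC by 0.40 (0.0438). ETV5 was lower by 0.89 (0.0250) and CDH2 (N-cadherin, a partner of FGFR1) by 0.71 (0.0266). Without pair 1 none of the 5 passed, without pair 2 EGR1 and FOS did, and without pair 3 EGR1, FOS and CDH2 did. SPRY4 was at 36.6, 39.4 and 38.5 FPKM in ActA and 26.6, 24.0 and 31.5 in SB and did not pass with the block (0.47, adjusted p = 0.0716). KLB (0.0989 to 0.328 FPKM) and FGFRL1 (0.118 to 0.730 FPKM) did not pass with or without it, and 0 of 7 neighbours of FGF4 and FGF19 did, CCND1 included (-0.11, adjusted p = 0.682 without the block).

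The numbers of the libraries ordered several members in the same way across the knock-in derived groups. FGF2 and FGF19 ran from library 2 to 1 to 3 in KI, ActA and SB alike, FGF4 from 2 to 3 to 1 and FGFR1 from 1 to 3 to 2. This was 4 of 7 members, and 18.3% of all genes above the filter kept 1 order in the 3 groups. Set beside the untreated library of the same number, FGF19 was lower in Activin A by 0.34, 0.47 and 0.62 on the log2 scale and higher in SB431542 by 0.33, 0.47 and 0.11. These libraries belong to separate tables. FGF2 was likewise lower by 0.28, 0.51 and 0.53 and higher by 0.41, 0.44 and 0.29. FGFR4 was the opposite, higher in Activin A by 0.02, 0.31 and 0.14 and lower in SB431542 by 0.58, 0.63 and 0.32. FGFR3 was higher than in the untreated library under both treatments, by 0.18, 0.04 and 0.28 with Activin A and 0.36, 0.58 and 0.40 with SB431542. A difference that both treated groups share against KI cannot be told apart from one between the separately made tables. It also cannot be told apart from one of medium, since the study's cytokine and inhibitor tests left LIF out of LCDMV. The labels do not give the medium of these libraries. KRT8, the keratin that made up most of the trophectoderm sum, also ran from library 2 to 1 to 3, at 96.7, 428 and 44.3 FPKM in KI libraries 1, 2 and 3.

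**Figure D5:**
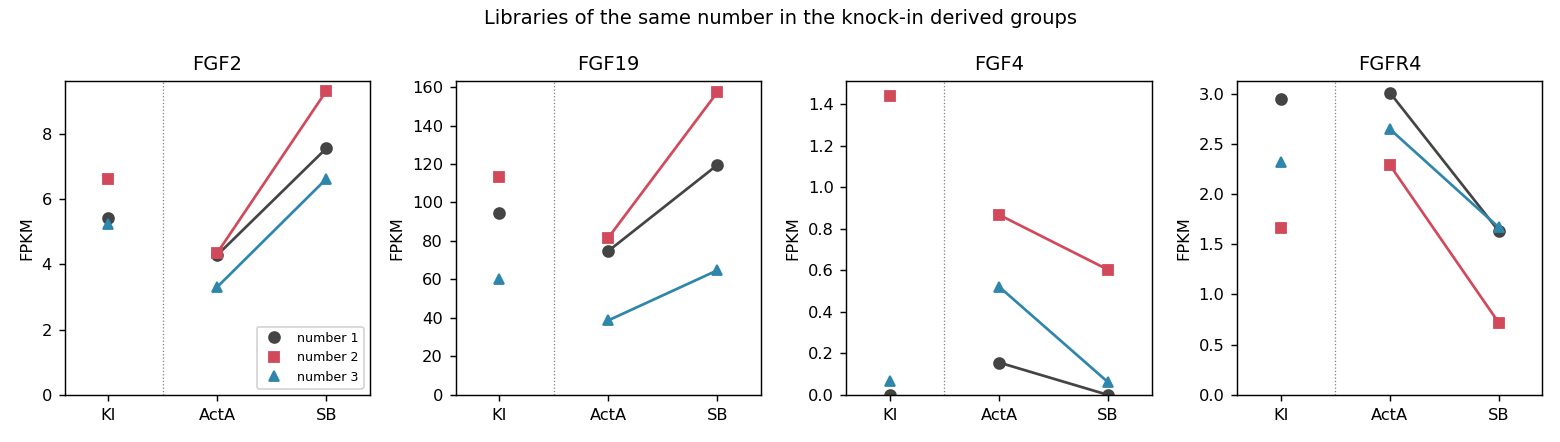
FPKM (vertical axes) of FGF2, FGF19, FGF4 and FGFR4 in the KI, ActA and SB groups, with a colour and symbol for each library number; lines join ActA and SB libraries of the same number, and the dotted line divides the separately made tables. FGF2 and FGF19 are higher and FGF4 and FGFR4 lower in SB in 3 of 3 pairs.

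Over the 12 libraries, the genes with the pattern most like that of FGF19 on the log2(FPKM + 1) scale, among 10771 genes, were TNFRSF12A (Pearson r = 0.978), RELT (0.977) and NID1 (0.976). TNFRSF12A, the receptor of the cytokine TWEAK, averaged 11.0 FPKM in WT, 52.4 in KI, 37.9 in ActA and 64.2 in SB, the same order of group means as FGF19. For FGF2 they were STRN3 (0.949), TMEM184C (0.949) and ING2 (0.933). These are descriptions across libraries that share treatment and table and may share lines.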

How the data were processed

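The authors deposited FPKM per gene, made with StringTie 1.3.3 from reads that Trim Galore had trimmed and HISAT2 2.0.4 had placed on the pig genome Ssc11.1. Their read counts (featureCounts 1.6.4) and DESeq2 results were not used here. Strandedness is not given in the sources used here, so reads of overlapping antisense genes cannot be told apart. Symbols came from the files for 17451 genes and from a table of gene names for 965 more. Coordinates are those of RefSeq for Sscrofa11.1, matched by symbol.

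Genes with at least 0.1 FPKM in 3 of the 6 libraries of a table were tested with limma 3.58.1 (variance trend, log2(FPKM + 1), R 4.3.3), two-sided, with Benjamini-Hochberg adjustment over all genes tested. Exact permutation tests used scipy 1.17.1. Relative depth was read from values under 0.3 FPKM, with KI library 1 as reference. The fit was tested on simulated data. The members and gene lists were chosen with earlier results of these data known. Named are all members, up to 4 passing genes per list with the largest change, FGFRL1, KLB and KL, and the 3 genes most like each member that passed. CCND1, ETV5, DUSP6, SPRY1, SPRY2, SPRY3, SPRY4 with Activin A, LTO1, FGF22 and KRT8 were added after their values were seen.

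The block on the replicate number was an alternative to the main fit in both comparisons, and no cutoff on a correlation decided its use. In deviations from the group means, libraries of the same number correlated for ActA and SB (r = 0.400, 0.587 and 0.535). For KI and WT they did not (-0.018, 0.0087 and 0.094). These correlations come from the same values as the tests. The pairing comes from the numbers in the labels.

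Alternatives were other pseudocounts, filters, scalings (TPM, median-ratio, quantile), no variance trend, the replicate block and leaving out each library.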

Additional observations from a re-analysis of the deposited data

How the results depend on the processing

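FGF19 rose in KI against WT and passed in all 15 alternatives run (2.67 to 3.16), the replicate block included (adjusted p = 0.0302), although KI and WT share only numbers and no pairing was shown. The other 11 passing pathway genes of that comparison became 5 without a filter, 6 with the block and 7 with a log2 fold change of at least 1 required. They ranged from 5 to 14 when libraries were left out. FGF4 has a KI against WT value only without a filter (0.41, adjusted p = 0.511). In ActA against SB the 0 passing members became 2 with the block, 2 with the block and a pseudocount of 0.1 and 2 with the block and median-ratio scaling, and 0 to 1 when pairs were left out. The 0 pathway genes became 5, 6 and 5 under the same settings and 0 to 3 when pairs were left out. With the block and no filter, 0 of 7 members and 0 of 85 pathway genes passed. Sizes without a call also moved in ActA against SB. Without single libraries FGF19 ranged from -1.13 to -0.45, FGF4 from 0.15 to 0.53 and FGFR3 from -0.48 to -0.12. FGF4 was 1.26 and 2.49 with pseudocounts of 0.1 and 0.01 and 0.62 with TPM, and FGFR4 was 1.01 and 1.07 with the same pseudocounts. The block changed no other call of a member. In KI against WT, FGF2 ranged from 0.04 to 0.23, FGFR2 from 0.13 to 0.51 and FGFR3 from 0.02 to 0.39 without single libraries. Small differences changed sign. FGFR1 in KI against WT was -0.093 under quantile normalization and -0.065 to 0.155 without single libraries, and FGFR4 -0.066 to 0.414. In ActA against SB, FGFR1 was -0.011 with TPM, -0.0060 under quantile normalization, -0.147 to 0.182 without single libraries and -0.049 and -0.0089 with the block and without pair 2 or 3, and FGFR2 -0.116 to 0.047. The cause of these changes was not tested. FPKM gives no read numbers, so counting error could not be given, and FGF4 and KLB lie near the lowest values.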
